A study of Mus musculus with 61 samples.

Results

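The 6 coronal fractions of cerebellum and pons were taken from 2 mouse brains, each cut from its posterior end into 1 mm fractions. They were set by fraction number, in a choice made with earlier results of these data known. These are fractions 2 to 4 of the C series (C2, C3 and C4) and fractions 3 to 5 of the Co series (Co3, Co4 and Co5). They are 6 of the 29 coronal arrays and of the 61 arrays of the whole series, and they were set against the 23 other coronal fractions, 10 of the C series and 13 of the Co series. Each series came from 1 male C57BL/6J mouse aged 8 weeks, without treatment or genetic change, and each fraction pooled 200 sections of 5 µm. Total RNA of a fraction was labelled with Cy3 and hybridised to 1 Agilent 1-colour array. The Co brain was cut slightly obliquely, and the study matched 13 Co fractions to the 13 C fractions by how closely their array intensities correlated, here called pairs c1 (most posterior) to c13, so that the 6 fractions are pairs c2, c3 and c4. The fractions of a series come from 1 animal and are not separate mice. The p-values against all other coronal fractions therefore measure the spread between slices of 2 brains. Those of the comparisons in pairs measure the spread between these 2 mice at matched levels. Neither covers the spread between animals in general.

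The cerebellum refines movement and is built from a few repeated cell types. Granule cells, the most numerous neurons of the brain, send parallel fibres to Purkinje cells, whose inhibitory axons are the sole output of the cerebellar cortex, while molecular layer interneurons, Golgi cells and Bergmann glia surround them. The pons and medulla below carry cranial nerve nuclei, the noradrenergic locus coeruleus, serotonergic raphe nuclei and large fast-conducting neurons, and Hox genes keep there the nested anterior limits they had in the embryo. Choroid plexus, the epithelium that secretes cerebrospinal fluid, lies in the roof of the fourth ventricle between cerebellum and brainstem.

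Levels are given as log2 signal relative to the 75th percentile of the array, so that 0 is the signal at that percentile and a negative level is a dimmer probe. Where a probe was well above background on only some arrays of the dimmer group, its fold is the fitted difference, in part of background signal, and no bound. A level belongs to 1 probe and is compared only between fractions, never between genes. All 6 arrays correlated with each other at r of 0.982 to 0.993 across probes, and the share of probes well above background was 61.6% in Co3 to 71.6% in Co5. In whole fractions, fewer cells of a type and less RNA per cell cannot be told apart. Slides matter here: C1 to C4 shared 1 slide, Co1 to Co4 a different one and Co5 to Co8 another, so that only the nearest neighbours of these fractions lay on the same slide, and slide and position are largely tied.

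The label fits the cerebellum and is looser for the pons. Gabra6, a GABA-A receptor subunit of cerebellar granule cells, had levels of 3.76, 3.82 and 3.80 in C2 to C4 and of 3.68, 3.64 and 3.75 in Co3 to Co5. In the 23 other fractions it ran from -5.18 over a median of -3.27 to 1.91 in Co2, so that the groups did not overlap. Cdh23, which the study used as a marker of the pons, lay between -5.20 and -3.69 in the 6 fractions and between -6.33 and -3.46 in the others, and the difference of 0.49 did not pass the test (adjusted p = 0.264, limma with Benjamini-Hochberg adjustment over all 34872 probes tested). Of 11 markers of cerebellum and brainstem taken from the study, 5 rose, none fell and 2 did not overlap with the other fractions. Over all probes 24.0% were higher and 16.5% lower, and with slide as a fixed block 2 of the 11 rose. Slc6a2, the noradrenaline transporter of the locus coeruleus in the pons, was highest of the 6 in C4 at -0.66 and Co5 at -0.93. The posterior fractions of the 6 also carried Hox genes known from the medulla, with Hoxb6 at 2.99 in C2 and 2.75 in Co3.

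A pair of upstream stretches shows the gene starts of a Purkinje cell marker, Pcp2, and a granule cell marker, Gabra6. RORA, a nuclear receptor that Purkinje cells need, binds the sequence AGGTCA, and Rora itself was 1.51 ± 0.22 (SE) higher on the log2 scale in the 6 fractions. The 250 bases before each RefSeq start (GRCm38.p6) were therefore searched for AGGTCA on both strands, with no other motif searched. It was in 4607 of 32851 promoters (14.0%), in 7 of 20 promoters (35.0%) of the 12 Purkinje list genes that had one, and in 5 of 26 (19.2%) of the 17 granule cell list genes that had one. Counted by gene it was in 4260 of 27025 (15.8%), in 5 of the 12 Purkinje list genes (41.7%) and in 5 of the 17 granule cell list genes (29.4%), since 3 of the 7 matching Purkinje promoters are starts of Pcp2 and overlapping promoters share a match. Pcp2 is shown from chr8:3625548-3625797 and Gabra6 from chr11:42321073-42321322, both on the minus strand and written 5′ to 3′, with the match in capitals. RefSeq gives 4 starts for Pcp2, and in the one shown the match begins 12 bases before the start. The same letters lie 87 bases before another, a different match lies 26 bases before one more, and the remaining start has none. The Gabra6 stretch holds no match. A match is only a stretch of letters and does not show binding.
Pcp2: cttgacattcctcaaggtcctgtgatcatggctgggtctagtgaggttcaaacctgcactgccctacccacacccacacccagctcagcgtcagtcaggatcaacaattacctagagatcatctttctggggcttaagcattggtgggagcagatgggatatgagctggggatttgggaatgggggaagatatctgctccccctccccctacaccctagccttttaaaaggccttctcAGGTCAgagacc
Gabra6: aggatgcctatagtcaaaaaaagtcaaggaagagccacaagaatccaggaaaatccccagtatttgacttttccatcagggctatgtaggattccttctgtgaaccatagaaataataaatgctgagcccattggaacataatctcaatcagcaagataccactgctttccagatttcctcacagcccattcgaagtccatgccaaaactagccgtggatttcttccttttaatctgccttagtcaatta

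Against all other coronal fractions, the 6 fractions were marked by granule cell and Purkinje cell genes on the high side. Forebrain transcription factors were low in them, and telencephalon genes were low in the fractions posterior to them as well. Of 34872 probes, 8365 (24.0%) were higher and 5761 (16.5%) lower at an adjusted p under 0.05 (limma), and 2610 and 1698 of these passed 2-fold. All 6 fractions lay above all 23 others for 1399 probes (4.01%) and below them for 930 (2.67%). With each array scaled to its median instead, the split turned to 6069 higher and 7713 lower and the median difference over all probes moved from 0.08 to -0.03. Differences below are to be read against that shift, and counts of list genes against the 24.0% higher and 16.5% lower over all probes.

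**Figure D1:**
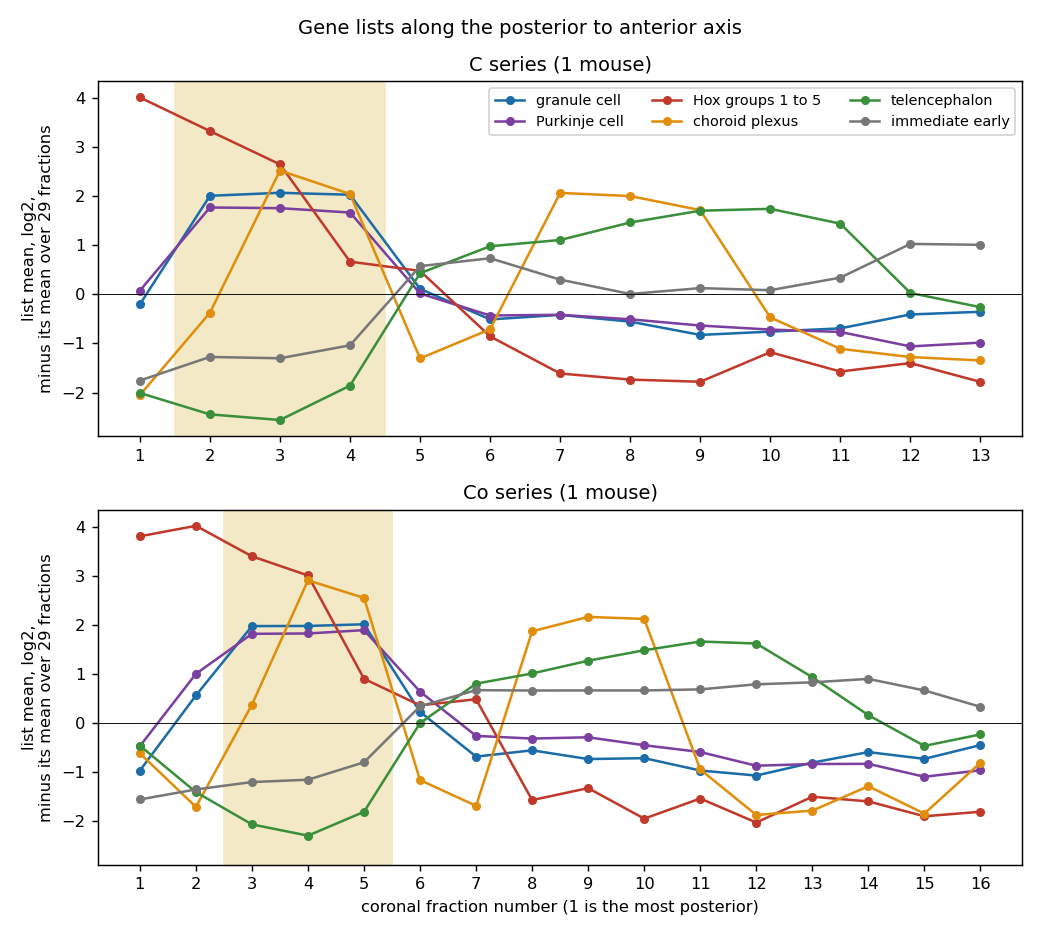
Mean log2 level of the genes of 6 lists in each coronal fraction, minus the list's mean over the 29 fractions, for the C mouse (top) and the Co mouse (bottom), with the 6 cerebellum and pons fractions shaded. Granule and Purkinje cell genes form a plateau over the shaded fractions, Hox genes slope down through them, choroid plexus genes peak in the middle and anterior ones and again farther forward, and telencephalon genes reach their lowest means there.

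Granule cell genes were higher almost without exception. Of 19 granule cell genes tested, 18 rose and none fell, with a median log2 difference of 1.92 against 0.08 over all probes, and for 14 of them all 6 fractions lay above all others. Gabra6 led with a log2 difference of 6.52 ± 0.81 (SE), a 91.8-fold difference (adjusted p = 3.13e-07). Cbln3, a partner of the synapse organiser cerebellin 1 that granule cells release, had levels of 1.69, 1.69 and 1.95 in C2 to C4 and of 1.48, 1.38 and 1.27 in Co3 to Co5. The other fractions stayed between -6.39 and -0.39 with a median of -5.26, and the difference was 74.3-fold. Cbln1 itself, which bridges parallel fibres to Purkinje cells, was 12.0-fold higher and did not overlap either. Neurod1, a transcription factor of granule cell differentiation, was at 0.94, 1.02 and 0.93 in C2 to C4 and at 1.17, 1.07 and 1.13 in Co3 to Co5, against -4.82 to -0.61 elsewhere. Its 21.2-fold difference was followed by Il16, the interleukin 16 gene with a neuronal form in granule cells, at 17-fold. Tiam1, a Rac activator, was the member that did not pass, with a difference of 0.58 (adjusted p = 0.0915).

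Purkinje cell genes showed the same plateau, and the 4 exceptions each reached higher levels in fractions farther forward. Of 23 tested, 19 rose and none fell, with a median difference of 2.19, and 16 did not overlap with the other fractions. Pcp2, a G protein regulator of Purkinje cells and retinal bipolar cells, had levels of 4.96, 5.12 and 4.92 in C2 to C4 and of 5.44, 5.46 and 5.55 in Co3 to Co5. The 23 others ran from -0.78 over a median of 0.06 to 4.20 in Co2, the fraction just posterior, and the difference was 28.5-fold (adjusted p = 6.85e-08, limma). Ppp1r17, a phosphatase inhibitor phosphorylated through cyclic GMP signalling in Purkinje cells, was 35.3-fold higher. Car8, a carbonic anhydrase relative that binds the IP3 receptor, was 31.3-fold higher with levels of 3.55, 3.58, 3.55, 3.76, 3.73 and 3.95 from C2 to Co5. Lhx1, a LIM homeobox factor of developing and adult Purkinje cells, was 24.2-fold higher, and for these 3 genes too all 6 fractions exceeded every other. Among the 4 that did not pass were Foxp2, a forkhead factor, at -0.52 and Pcp4, a calmodulin-binding peptide, at 0.22. Pcp4 had levels of 5.59 to 5.88 in the 6 fractions and reached 6.09 in Co11, a forebrain fraction.

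Interneurons and Bergmann glia gave smaller sets. Of 9 interneuron genes, 5 rose and 1, Sorcs3, fell by 0.74. Nrk, a kinase whose level stood at -4.27, -4.31, -4.28, -3.71, -3.59 and -3.54 from C2 to Co5, was well above background in all 6 and in only 3 of the 23 others, with a fitted difference of 25.0-fold. Kit, the stem cell factor receptor of molecular layer interneurons, was 2.86-fold higher, with levels of 2.41 to 2.64 in the C mouse and 1.58 to 1.68 in the Co mouse. Slc6a5, the glycine transporter of Golgi cells and of brainstem glycinergic neurons, was 54.5-fold higher but overlapped with other fractions: it was 0.88 to 1.18 in the 6 and 1.85 in Co2. Its call was lost in the Co mouse alone and when slide was a fixed or a random block. Of 7 Bergmann glia genes, 5 rose and none fell. Gdf10, a growth factor of the TGF-beta family kept by Bergmann glia, was 9.5-fold higher and the only member of the list whose groups did not overlap, and Timp4, a metalloproteinase inhibitor, was 4.05-fold higher.

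**Figure D2:**
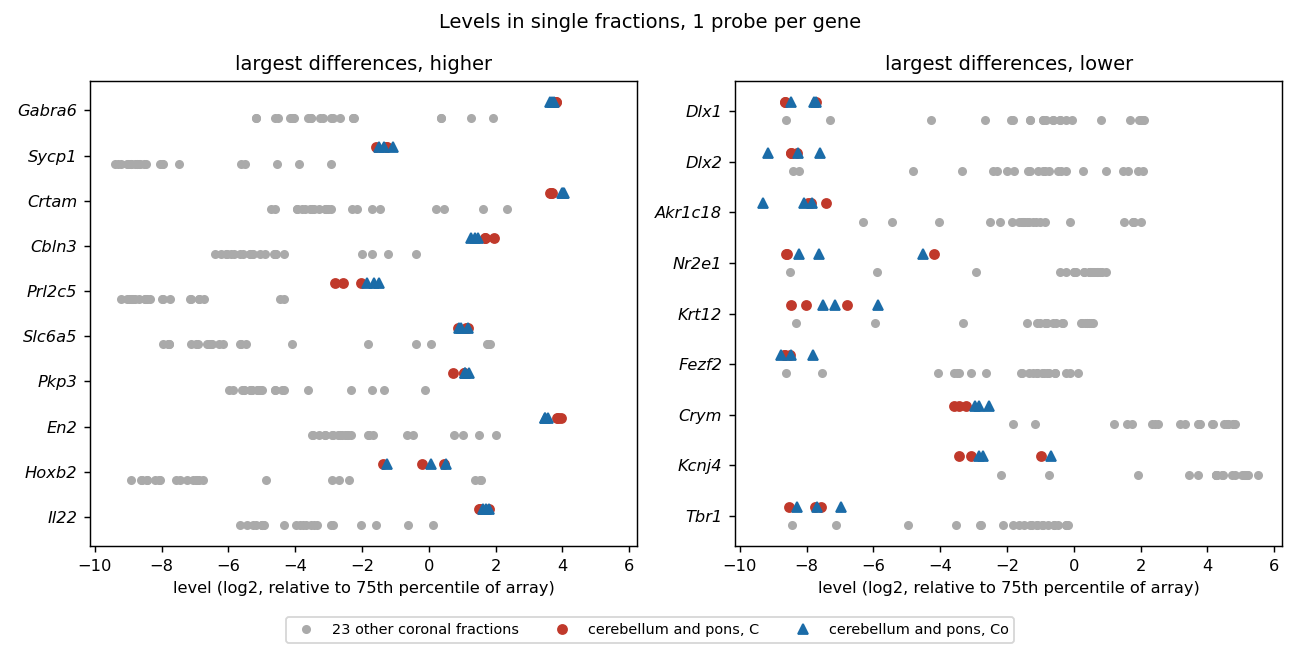
Levels (log2, relative to the 75th percentile of the array) in single fractions for genes with the largest (left) and the smallest (right) log2 difference, 1 point per fraction, grey for the 23 other coronal fractions. For Gabra6, Crtam, Cbln3, Sycp1, Prl2c5, Pkp3, En2 and Il22 all coloured points lie to the right of the grey ones, while Slc6a5 and Hoxb2 overlap with the most posterior fractions.

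The 10 genes with the largest differences also held names that are better known from other organs. En2, the engrailed factor that patterns the midbrain and cerebellum, was 44.3-fold higher, at 3.84 to 3.95 in the C mouse and 3.47 to 3.58 in the Co mouse against at most 2.01 elsewhere. Sycp1, a protein of the meiotic synaptonemal complex, had levels of -1.25, -1.27, -1.58, -1.06, -1.34 and -1.49 from C2 to Co5. Its probe was well above background in only 5 of the 23 other fractions, which ran from -9.41 to -2.94, and the fitted difference was 86.6-fold. Crtam, an adhesion molecule of activated T cells, was 80.4-fold higher and ranged from 3.63 to 4.05 in the 6 fractions. Prl2c5, a member of the placental prolactin family, was 57.6-fold higher in the fit, with 3 of the 23 others well above background, but that family has near-identical copies whose transcripts 1 probe may not separate. Pkp3, a plakophilin of epithelial desmosomes, was 45.0-fold higher, and Il22, a cytokine of lymphocytes, was 43.7-fold higher at levels of 1.51 to 1.82. Each of these probes was read as the array design names it, and the identity of the transcript was not tested.

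Receptor subunits did not move together. Of 14 GABA-A receptor genes, 2 rose and 7 fell. Gabra6 and Gabrd, the subunits of the extrasynaptic granule cell receptor, were the 2 that rose, Gabrd by 2.35-fold. Gabra5 had levels of -0.45, -1.0, -1.07, -0.62, -0.84 and -1.14 from C2 to Co5, all below its 0.22 to 2.31 in the others, and was 3.27-fold lower. Gabra3, a subunit of many brainstem and cortical receptors, was 2.93-fold lower and did not overlap. Gabrg3 was not well above background in any of the 6 fractions and was at least 3.01-fold lower.

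Ionotropic glutamate receptor genes were evenly divided, with 6 of 16 higher and 6 lower. Grin3b, a glycine-binding NMDA receptor subunit of motor neurons, was 6.75-fold higher but reached 0.96 in Co1, above all 6. Grin3b lost its call in the Co mouse alone and with slide as a fixed or a random block. Gria4, an AMPA receptor subunit of Bergmann glia and granule cells, was 3.58-fold higher, and Grin2c, the NMDA receptor subunit of mature granule cells, was 2.92-fold higher with levels held between 4.04 and 4.17. Grin2b, the NMDA receptor subunit that granule cells lose as they mature, lay at -4.96 to -4.43 in the 6 fractions and -4.38 to -1.62 in the others, and was 4.71-fold lower. Gria2, the subunit that makes AMPA receptors impermeable to calcium, was 2.38-fold lower.

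**Figure D3:**
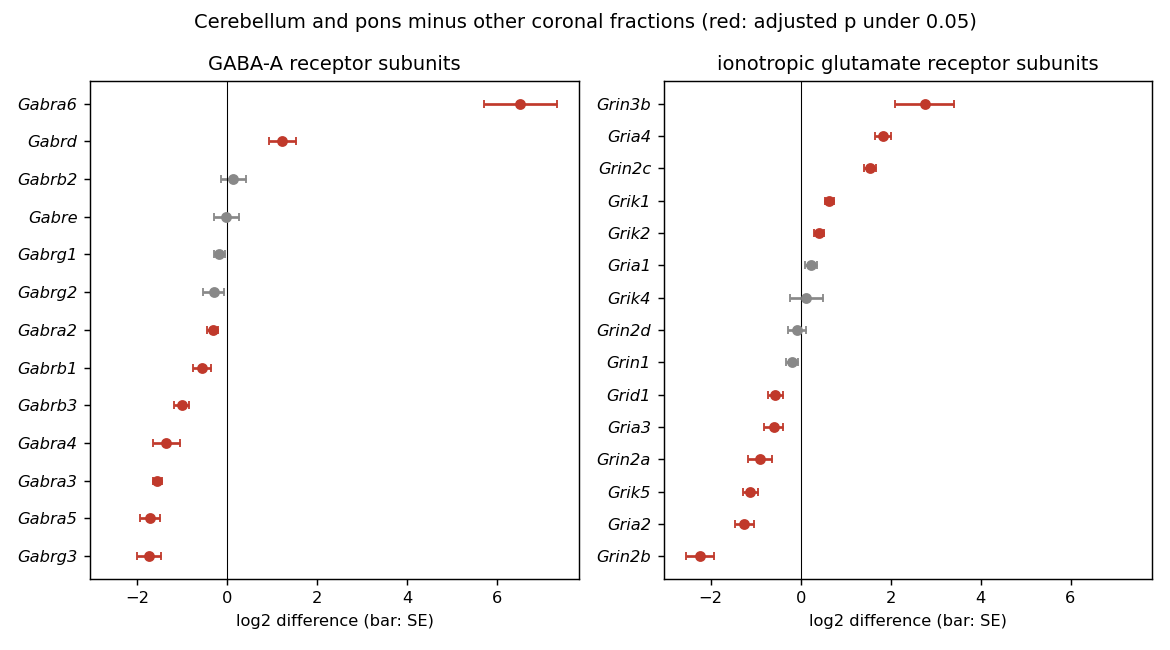
Log2 difference between the 6 cerebellum and pons fractions and the 23 other coronal fractions for the subunit genes shown (bar: SE), red where the adjusted p was under 0.05. Gabra6 at 6.52 and Gabrd at 1.23 stand at one end of the GABA-A subunits and Gabrg3 at -1.74 at the other, and Grin3b at 2.75 and Grin2b at -2.24 bound the glutamate receptor subunits shown.

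Genes of inherited ataxias, disorders that damage Purkinje cells or their circuits, were no uniform set: 9 of 23 rose and 4 fell. Over all probes 24.0% were higher and 16.5% lower. Car8 (above) rose most. Itpr1, the IP3 receptor of calcium stores in Purkinje cells, was 3.31-fold higher, with levels of 6.27 to 6.70 in the 6 fractions and at most 5.68 elsewhere. Pdyn, the opioid precursor prodynorphin, was 6.39-fold lower, at 0.40, -0.50, -0.50, 0.30, -0.06 and -0.60 from C2 to Co5 and 0.91 or more in the others. The other 10 members of this list passed in neither direction.

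Brainstem transmitter genes were uneven along the 6 fractions. Their counts are to be read against the 24.0% of all probes that were higher and the 16.5% that were lower. The short serotonergic, glycinergic and cholinergic lists are not set apart from these shares. Of 9 noradrenergic genes, 4 rose, among them Slc6a2 by 13.8-fold, Dbh, which makes noradrenaline, by 7.27-fold, and the factor Phox2a by 4.43-fold. Slc6a2 had levels of -4.20, -4.96 and -0.66 in C2 to C4 and of -3.70, -4.70 and -0.93 in Co3 to Co5, so that the most anterior fraction of each mouse held the signal. Co6, the next fraction, was as high at -0.89. Of 8 serotonergic genes, 1 rose, the serotonin transporter Slc6a4 by 6.34-fold, and 2 fell, and Slc6a4 was higher still in C5 at 0.59 and Co6 at 0.87 than in any of the 6. Among 8 glycinergic genes 3 rose and 1 fell, and among 7 cholinergic and motor neuron genes 2 rose, the vesicular transporter Slc18a3 and the intermediate filament Prph, at 3.29-fold and 6.44-fold. Of 11 genes of fast-firing neurons with large axons, 8 rose and 1 fell. Nefh, the heavy neurofilament chain, was 3.01-fold higher at 4.18 to 4.58, though Co1 reached 4.85, and Hapln1, a link protein of perineuronal nets, fell by 1.22 on the log2 scale. When slide was a fixed block, 2 of these 11 and 2 of the 9 noradrenergic genes rose, and none of the serotonergic, glycinergic or cholinergic genes did. In the Co mouse alone 2 noradrenergic genes rose. Slc6a2 lost its call with slide as a fixed block and in the Co mouse alone, and Phox2a in both and with slide as a random block. None of the 8 serotonergic genes rose in either mouse alone. Slc6a4 lost its call in each mouse, under both slide blocks and when some single fractions were left out.

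Hox genes of paralogue groups 1 to 5, which pattern the hindbrain, gave 11 higher and none lower of 14, with a median difference of 3.25, but no member of the list was without overlap, because the posterior fractions C1, Co1 and Co2 were higher. Hoxb2 had levels of 0.45, -0.20 and -1.38 in C2 to C4 and of 0.51, 0.06 and -1.26 in Co3 to Co5, and reached 1.57 in C1. It was 44.3-fold higher (adjusted p = 0.00271, limma) and well above background in 9 of the 23 others. When slide replaced series as a fixed block, which compares these fractions with their neighbours on the same slide, Hoxb2 turned to -0.18 and of the 14 genes 1 rose and 1 fell, as also with the slide as a random block. Without C1, Co1 and Co2, 13 of the 14 rose and none fell. In the C mouse alone 4 rose and in the Co mouse alone 1, with medians of 3.05 and 3.22. Of 17 genes of hindbrain patterning 7 rose and 4 fell, En2 being the only one without overlap, but 3 rose and 3 fell with slide as a random block, 2 and 2 with slide as a fixed block (median -0.15), and 1 rose and 3 fell in the Co mouse alone. Pax8, a paired-box factor of the midbrain to hindbrain boundary, rose 8.25-fold, and it too turned, to -0.08, when slide was a fixed block. Egr2, known from the segments of the embryonic hindbrain and also an immediate early gene, fell by 5.16.

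Forebrain genes were low. Of 18 telencephalon genes none rose and 13 fell, with a median difference of -2.64. With slide as a fixed block 9 fell, with a median of -1.23, and with slide as a random block 12 fell. Their summed level was 10.9 to 21.1 in the 6 fractions and 25.3 to 51.5 in C1, Co1 and Co2. In the fractions anterior to pair c6 it was 65.5 to 246. Against pair c1, 7 of the 18 were lower and 1 was higher, with a median of -0.22. Tbr1, a factor of cortical projection neurons, was not well above background in any of the 6 fractions and was at least 52.5-fold lower. Dlx1 and Dlx2, homeobox factors of forebrain inhibitory neurons, were likewise not well above background in any of the 6 and at least 122-fold and 108-fold lower. Fezf2, a factor of corticospinal neurons, was at least 65.7-fold lower, and Akr1c18, a progesterone-metabolising enzyme, was at least 103-fold lower without overlap. Crym, a thyroid hormone binding protein of cortex and striatum, ran from -3.60 to -2.54 in the 6 fractions and from -1.83 to 4.83 in the others, a 73.3-fold difference. Nr2e1, Krt12 and Kcnj4 were also among the 10 lowest, at fitted differences of 94.6, 82.5 and 73.2-fold, Nr2e1 being well above background in 2 and Krt12 in 1 of the 6.

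The oblique Co1 fraction stood apart from its neighbours in forebrain genes. It carried 2 hypothalamic peptide genes, Hcrt at -1.33 and Pmch at -1.50, against -3.96 and -4.31 in C1. Of 11 thalamus and hypothalamus genes none rose and 5 fell in the 6 fractions, led by Avp, the vasopressin gene, at 18-fold, Hcrt at 7.25-fold and Pmch at 7.05-fold. When slide was a fixed or a random block none of the 11 fell, and in single mice 1 fell in the C mouse and none in the Co mouse, with these 3 genes losing their call in all 4 fits. Without C1, Co1 and Co2 among the others, 16787 probes passed in place of 14126.

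Lists of other cell types and of recent neuronal activity were read beside these. Of 7 choroid plexus genes 6 rose and none fell, with a median of 1.99, and their summed level, on the linear scale relative to the 75th percentile, ran from 3.35 in C2 to 25.4 in Co4 in the 6 fractions and from 0.900 to 15.6 in the others. Ttr, the transthyretin of choroid plexus, ran from -1.03 to 3.07 in the 6 fractions and from -5.17 to 2.37 in the others. Of 10 immediate early genes, which neurons switch on within minutes of activity, none rose and 6 fell, with a median of -2.08. Egr1 was 5.22-fold lower, at 1.67, 1.61, 1.85, 1.09, 0.97 and 1.46 from C2 to Co5, and Arc 5.52-fold lower, while Fos at -0.28 did not pass. The summed level of the list was 24.8 to 34.0 in the 6 fractions, 21.4 to 25.2 in C1, Co1 and Co2 and 78.2 to 176 in the fractions anterior to pair c6. With the slide as a random block, 2 of the immediate early genes rose and 4 fell, with a median of -0.59. With slide as a fixed block the counts were the same and the median was -0.0017. Choroid plexus genes gave 7 of 7 higher with slide as a random block and 4 with slide as a fixed block. In the C mouse alone none of them was higher and in the Co mouse alone 1, with medians of 1.56 and 2.31. Of 7 meninges genes and 2 blood genes none passed in either direction. Of 14 myelin genes 1 rose, Mbp by 1.54-fold, another Mbp probe gave -0.50, and without C1, Co1 and Co2 9 of the 14 rose. The direction of the myelin list turned when slide was a fixed block, with none higher, 5 lower and a median of -0.43 against 0.55, and with slide as a random block none was higher and 1 lower. Of 7 astrocyte genes 2 rose, Aqp4 and S100b, and 1 fell, near the 24.0% higher and 16.5% lower over all probes. The part of choroid plexus or of immediate early genes in the other differences was not tested.

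Directions were shared by the mice. Of the 14126 probes called, 14097 (99.8%) had the same sign in the C and the Co mouse, and 5250 passed in each mouse alone. Across the 34865 probes measured in both, the log2 differences of the 2 mice correlated at r = 0.873, which describes probes and not replicates, and the choice of probes called on both mice favours a shared sign. Gabra6 differed by 6.44 in the C mouse and by 6.60 in the Co mouse. Crym differed by -6.52 and -5.89. A test of the difference between the mice called none of 34865 probes (0.0%) with limma, and 1322 had an unadjusted p under 0.05.

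**Figure D4:**
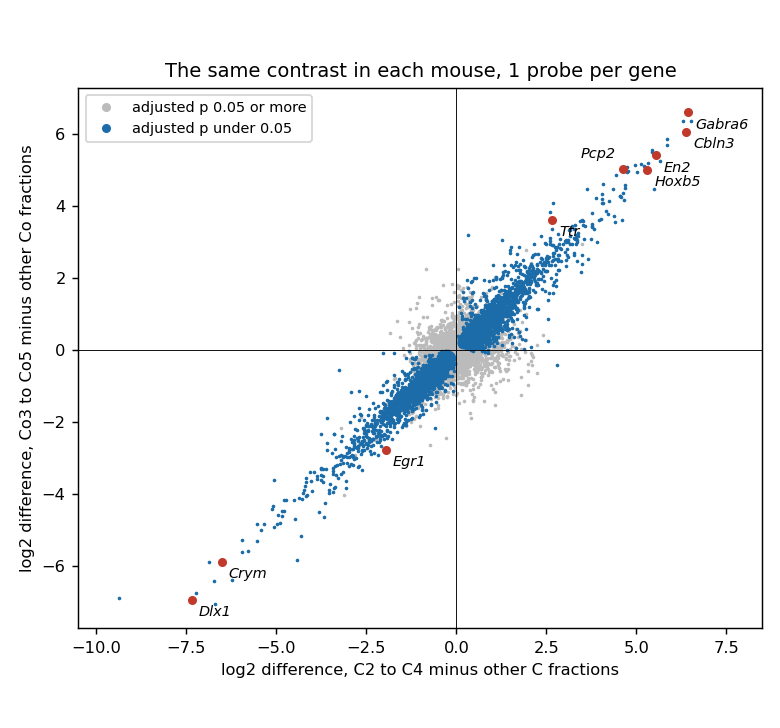
Log2 difference between the cerebellum and pons fractions and the other coronal fractions in the Co mouse (vertical axis) against the C mouse (horizontal axis), 1 point per gene, blue where the adjusted p of the joint contrast was under 0.05. Gabra6, Cbln3, En2 and Pcp2 lie at the upper right and Dlx1 and Crym at the lower left, with Crym at -6.52 in the C mouse and -5.89 in the Co mouse.

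Toward the posterior neighbour, pair c1 (C1 and Co2), the 6 fractions had higher cerebellar and choroid plexus genes and lower Hox genes. Of 34850 probes, 5207 (14.9%) were higher in the 6 fractions and 4729 (13.6%) lower (limma, 13 pairs with the series as a block). Granule cell genes were higher in 18 of 19 and Purkinje cell genes in 19 of 23, with median differences of 1.70 and 1.34, and no member of either list was lower. Gabra6 was 6.06-fold and Pcp2 3.64-fold higher, and C1 and Co2 held Pcp2 at 2.56 and 4.20. Hox genes went the other way, with 1 of 14 higher and 9 lower. Further lower were 13 of 14 myelin genes, 5 of 7 astrocyte genes, 5 of 7 meninges genes and 5 of 11 genes of fast-firing neurons, while 5 of 10 immediate early genes were higher. With Co1 added to the posterior group, a fit without pairs, 1 of the myelin genes, 1 of the meninges genes, 2 of the astrocyte genes, 5 of the Hox genes and none of the genes of fast-firing neurons were lower. Medians moved less than these counts, from -0.55 to -0.64 for myelin, from -0.83 to -0.68 for meninges and from -1.70 to -1.57 for Hox genes.

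The 5 genes furthest above the posterior neighbour included 2 of the choroid plexus list, Ttr and Cldn2. Ttr had levels of -5.17 in C1 and -3.97 in Co2, of -1.03, 2.38 and 1.81 in C2 to C4 and of 0.43, 3.07 and 2.86 in Co3 to Co5, a 71.4-fold difference. Kcne2, a potassium channel subunit of choroid plexus epithelium, was 88.5-fold higher, Aoc1 at least 14.0-fold, Cldn2, a leaky tight-junction protein, 15.2-fold and Tmem72 at least 11.1-fold. All 7 choroid plexus genes tested were higher. At the other end stood, by fitted difference, Hoxb7, 116-fold lower, Hoxb9, 85.6-fold lower, the neuropeptide neuromedin U gene Nmu, 58.6-fold lower, Hoxa7, 32.3-fold lower, and Hoxc6, 31.4-fold lower. Of the 6 fractions, the probe was well above background in 4 for Hoxb7, 1 for Hoxb9, 3 for Nmu, 6 for Hoxa7 and 4 for Hoxc6. These Hox genes belong to the lower hindbrain and spinal cord, and Hoxb7 was 3.94 in C1 and 2.95 in Co2.

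Receptor subunits also stepped here. Gabrb2, a subunit of the commonest GABA-A receptor, did not pass against all fractions but was 2.85-fold higher than in pair c1, while Gabra3 was 3.14-fold lower and Gabra5 2.92-fold lower. Gabrb2 had -2.23 in C1 and -2.11 in Co2 against -1.08 to -0.22 in the 6 fractions. Pcp4 was 1.65-fold higher than in pair c1 (adjusted p = 0.000249, limma). Glra1, the glycine receptor of spinal cord and brainstem, was 4.13-fold lower than in pair c1.

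Toward the anterior neighbours, pairs c5 and c6 (C5, C6, Co6 and Co7), telencephalon genes were lower and cerebellar genes higher in the 6 fractions. Of 34830 probes, 9168 (26.3%) were higher in the 6 fractions and 6918 (19.9%) lower. With median scaling the split was 6755 to 8836. Granule cell genes were higher in 18 of 19 and Purkinje cell genes in 20 of 23, with medians of 2.14 and 1.68, and Foxp2, 1.53-fold lower, was the 1 Purkinje gene that fell. Hox genes were higher in 13 of 14, Bergmann glia genes in 6 of 7 and all 7 choroid plexus genes. The largest rises were Sycp1 at 38.6-fold, Prl2c5 at 26.4-fold, Cbln3 at 24.3-fold, Hoxb6 at 23.4-fold and Gabra6 at 22.1-fold. Gabra6 kept 0.37 in C5 and 1.27 in Co6 and dropped to -2.26 in C6 and -2.28 in Co7.

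On the low side against the anterior neighbours stood 15 of 18 telencephalon genes, 8 of 10 immediate early genes and 4 of 8 serotonergic genes, and 1 telencephalon gene was higher. Fezf2 was not well above background in any of the 6 fractions and at least 175-fold lower, with levels of -1.11, -0.58, -1.36 and 0.13 in C5, C6, Co6 and Co7. Crym was 143-fold lower, Nr2e1, a factor of neural stem cells, 130-fold and Krt12 87.7-fold. Among genes chosen after their values were seen, 3 known from the midbrain were lower: Pax7, a factor of the superior colliculus, by 12.3-fold, Ucn, the urocortin of the Edinger-Westphal nucleus, by 8.76-fold and Tfap2d by 4.66-fold. Tph2, the serotonin-making hydroxylase of raphe neurons, was 2.84-fold lower (adjusted p = 0.0457). Both blood genes were higher, Hba-a1 by 1.52-fold. Over all 3 positions, 3106 probes were higher in the 6 fractions against all others, against the posterior neighbour and against the anterior neighbours.

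Within the 6 fractions, cerebellar neuron genes were flat, Hox genes were graded and choroid plexus genes were uneven. Between the most anterior pair, c4 (C4 and Co5), and the most posterior, c2 (C2 and Co3), 322 of 34861 probes (0.924%) were higher at the anterior end and 192 (0.551%) lower (limma, 13 pairs). The split rested on single fractions: it was 256 to 295 without C2, 289 to 114 without C4, 193 to 143 without Co3 and 230 to 87 without Co5. No granule cell and no Purkinje cell gene passed, the medians being 0.01 and 0.03, and Gabra6 differed by 0.05 ± 0.64 (SE). The spread in this test came from all 13 pairs. Fitted on the 6 arrays alone it left 1 probe called.

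**Figure D5:**
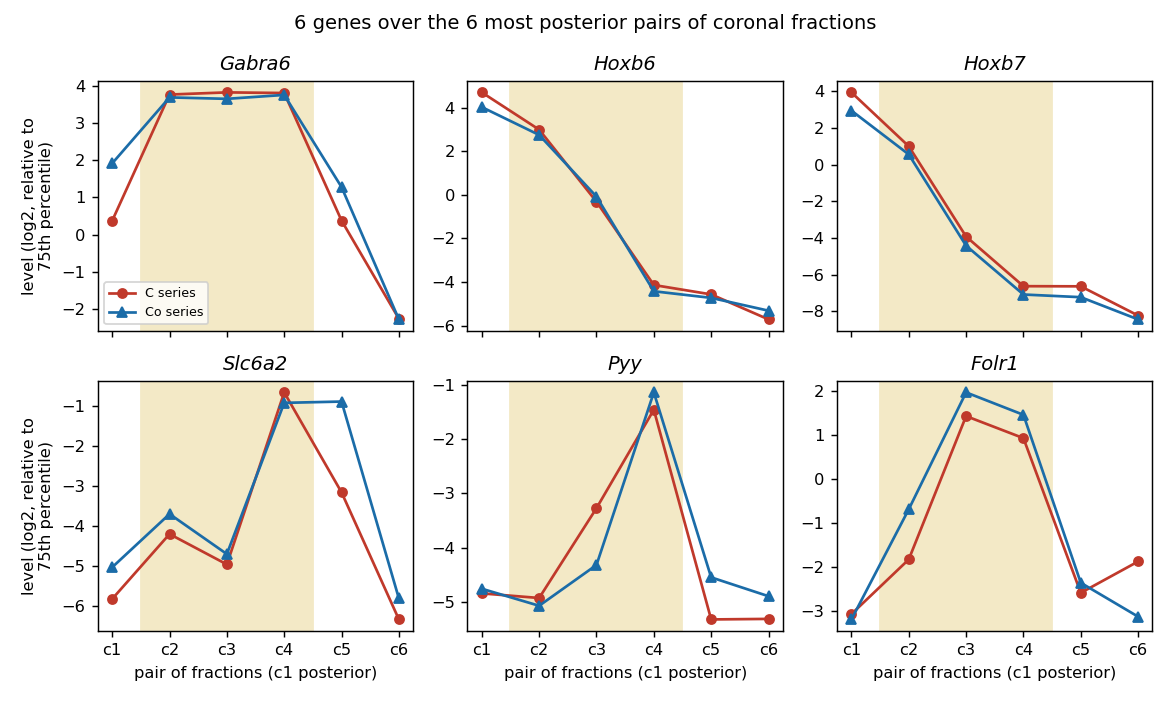
Levels (log2, relative to the 75th percentile of the array) of 6 genes over the 6 most posterior pairs of fractions, c1 to c6, in both mice, with the cerebellum and pons pairs c2 to c4 shaded. Gabra6 is flat at 3.64 to 3.82 through the shading, Hoxb6 and Hoxb7 fall through it, Slc6a2 is high at c4 in both mice and as high at c5 in the Co mouse, Pyy peaks at c4 and Folr1 peaks at c3.

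Hox genes fell in order from the posterior to the anterior of these fractions. Of 14 Hox genes of groups 1 to 5, 6 were lower in c4 and none higher: Hoxb3, Hoxa4, Hoxb4, Hoxa5, Hoxb5 and Hoxc5. Outside that list, Hoxb7 had levels of 1.00, -3.92 and -6.62 in C2 to C4 and of 0.56, -4.42 and -7.08 in Co3 to Co5. It was no longer well above background in either fraction of c4, a fall of at least 198-fold. Hoxb6 had levels of 2.99, -0.31 and -4.14 in the C mouse and of 2.75, -0.08 and -4.43 in the Co mouse, and fell 143-fold (adjusted p = 6.86e-09). Hoxc6 fell at least 60.9-fold, Hoxa5 72.8-fold and Hoxb5 64.1-fold. For Hoxb5 the steps were uneven, from 2.63 over 0.96 to -3.59 in the C mouse and from 2.78 over 1.71 to -3.01 in the Co mouse. Hoxa4 and Hoxb3 fell less, by 6.95-fold and 7.37-fold, and Hoxb3 was at -3.00 in C4 and -3.07 in Co5. Hoxb2, Hoxa2 and the other members were not called.

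The genes that rose toward the anterior end came from several places. Pyy, the gene of peptide YY, was at -4.92, -3.27 and -1.46 in C2 to C4 and at -5.07, -4.32 and -1.14 in Co3 to Co5, and fell back to -5.32 in C5 and -4.54 in Co6, so that its peak was narrow. It was 13.0-fold higher in c4. Tfap2d, which the study used as a marker of the inferior colliculus, appeared only in c4 of the 6 fractions, at -3.75 and -3.90, and was at least 10.4-fold higher. Nr2e1 was at least 12.3-fold higher in c4 and Krt15, a keratin, at least 23.4-fold, its level already up in c3 at -3.67 and -4.29. Tcf21, a factor of mesenchyme, was at least 8.23-fold higher and was at most -8.18 in c1, c5 and c6. Of 11 thalamus and hypothalamus genes 2 were higher in c4, 1 was lower and 8 were not called. The dorsal thalamus and midbrain factors Tcf7l2 and Lhx9 were 4.32-fold and 7.27-fold higher. Tcf7l2 was at 1.19 in C4 and 0.26 in Co5 and at most -1.02 in the 4 fractions behind.

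Other lists that differed between c4 and c2 were few. Of 7 choroid plexus genes 5 were higher in c4 than in c2: Folr1, the folate receptor, by 5.48-fold, Sostdc1 by 8.15-fold, F5 by 4.92-fold, Kl, the klotho gene, by 4.21-fold and Clic6 by 2.53-fold. Folr1 was -1.83, 1.43 and 0.93 in C2 to C4 and -0.69, 1.97 and 1.46 in Co3 to Co5, highest in the middle pair c3 of both mice. Ttr had the same course but did not pass (adjusted p = 0.0549). Gfap, the astrocyte filament, was 2.49-fold lower in c4, and Aldh1a2, a retinoic acid synthase of the meninges, 2.08-fold lower. Gbx2, which holds the posterior side of the midbrain to hindbrain boundary in the embryo, was 2.96-fold lower in c4. Slc6a2, in spite of the course given above, did not pass (adjusted p = 0.0593), and neither did Dbh (adjusted p = 0.24).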

How the data were processed

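Total RNA of each coronal fraction was hybridised to 1 Agilent 1-colour array. The deposited intensity of each spot was the background-subtracted signal that the authors' scanner software, Agilent Feature Extraction 9.1, wrote per the file headers. The authors also deposited a table of intensity values normalised per chip in GeneSpring GX, of probes flagged present at least once, which served as an alternative. Here non-control spots without an outlier flag were averaged per probe as log2 values and the 75th percentile of each array was subtracted. Arrays have no read depth, and their number limits the precision. Spots with an outlier flag left 441 values of tested probes missing on the 6 arrays, and fits ran without them. Of 41174 probes, 34872 were well above background on at least 1 coronal array and were tested, and no spot of the 29 arrays was saturated.

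Groups came from the fraction numbers in the sample labels. The first comparison and the difference between the mice were fitted to 29 arrays with the series as a block, and the neighbour and anterior to posterior comparisons to 26 arrays in 13 pairs with the series as a block (limma 3.58.1 in R 4.3.3, lmFit and eBayes, two-sided, Benjamini-Hochberg over all probes, threshold 0.05). Pairs are those of the study, which set them by the highest correlation of array intensities, so that matched fractions were chosen for alike expression, and the spread within pairs and the p-values of the fits in pairs may be too small. "At least" folds set the bright group against the higher of the dim signal and the lowest signal well above background on each array. Symbols came from the array names updated through RefSeq, which named 22951 probes, and a gene was read from the probe the study names for its regional markers (18 genes) or otherwise from its brightest probe. Of 269 genes in 23 lists, 255 were tested. The genes described are the 10 at either end of the first comparison and the 5 at either end of the anterior to posterior comparison, with the same sign in both mice. The 5 at either end of each neighbour comparison were taken without a rule on the sign in each mouse. Of each list, those with the largest differences that passed are described, and any member its count turns on. Other genes were chosen after their values were seen. The fractions, lists and rules were chosen with earlier results of these data known. On simulated data of 34333 probes with 100 changed at each size, the first comparison recovered 69% of 2-fold and 91% of 4-fold changes, and the anterior to posterior comparison 61% and 73%. Simulated noise was independent between arrays, whereas real arrays of a slide had a consensus correlation of 0.576, and far more probes were called in the data. These rates are therefore not the power of the real comparisons. Alternatives covered scaling, the authors' table, normexp with offset 50 and quantile normalisation, the filter on dim probes, a floor, flagged spots, slide, the block, single mice and leaving out arrays. Promoters were searched, and plots drawn, with Python 3.11.15, pandas 2.3.3 and matplotlib 3.10.9. Arrays of the other series were not used here, and some genes that the lists and rules name are not reported here.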

Additional observations from a re-analysis of the deposited data

Results flagged for a closer look

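Of 96 genes checked, 5 had 1 fraction that lay apart from the other 5 of the 6 by Dixon's ratio, and chance alone sets about 1 in 20 such groups apart. Pkp3 was lower in C4, at 0.73, than its 1.05 to 1.21 in the others. Aqp4, the astrocyte water channel, was higher in Co3, at 2.97, than its 2.56 to 2.71 in the others. Hoxb9 was higher in C2, at -5.15, than its -9.33 to -8.01 in the others, and its probe was well above background in 1 fraction of pair c2. Akr1c18 in Co5, at -9.31 against -8.07 to -7.43, and Fezf2 in Co3, at -7.80 against -8.78 to -8.48, were not well above background in any of the 6 fractions, so that their order carries no measurement.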

How the results depend on the processing

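Granule cell and Purkinje cell lists kept their direction under all 22 alternatives of the first comparison, with 16 to 19 of 19 and 18 to 21 of 23 genes higher. Of 84 named genes, 1692 of 1845 values kept direction and call, 142 lost the call and 11 turned. When slide replaced series as a fixed block, the log2 differences of Hoxb2 (-0.18), Hoxb3 (-0.41), Hoxa5 (-1.16), Hoxb5 (-1.07) and Pax8 (-0.081) turned. So did those of Glra1 (-0.90), Slc6a9 (-0.17), Vamp1 (-0.34), Mbp (-0.20) and Npas4 (0.0011). The calls of 19 further genes, Slc6a2 and Slc6a5 among them, were lost. That fit sets these fractions against neighbours on the same slide, and why these values turned was not tested. Another Mbp probe gave -0.50. Vamp1 had no value in C1 and C4. The slide cannot be told apart from position beyond these neighbours.

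The count of 14126 calls was 4308 with the 2-fold limit, 8212 in the C series alone and 7435 in the Co series alone, and 12387 to 13024 when 1 of the 6 fractions was left out. Against the posterior neighbour 9936 calls became 2572 with the 2-fold limit and stayed at 8714 to 9347 with a fraction left out. Against the anterior neighbours 16086 became 4316, with 14447 to 15169. Between the ends of the 6 fractions 514 became 317 to 551, with 336 without Co3 and 317 without Co5, and 1 in a fit of the 6 arrays alone. All 10 genes named at either end of that comparison kept their call in the other fits except Tcf21 and Tfap2d, which lost it without single fractions, and 9 of the 10 lost it in the fit of 6 arrays. The difference between the mice, 0 calls, became 33 in the authors' table, 141 with a floor on dim signals and 0 to 13 with a fraction left out, 13 without Co5. With the authors' table the split of the first comparison was 5734 higher to 7639 lower, and against the anterior neighbours 6222 to 8633; the cause was not tested.

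Pairs of fractions, matched on array intensities, mark position and not a shared animal, so no number pairs samples between groups. Without the series as a block, calls numbered 11772 in the first comparison, 4842 against the posterior neighbour, 10480 against the anterior neighbours and 296 between the ends.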
